A study of Mus musculus with 45 samples.

Results

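The contrast described here asks where the change in histone H3 lysine 9 acetylation (H3K9ac) differed between mice with mutant tau and CK-p25 mice. It is the tau effect at 11 months (tau minus wild type) minus the CK-p25 effect, which is the mean of CK-p25 minus CK at 2 and at 6 weeks after induction. The labels chose its 18 libraries, 3 in each of 6 groups, out of 45 in the series. All 43341 autosomal domains of the 44165 in the count matrix were taken, and 42795 had enough reads to be tested. A positive value of the contrast means that the tau effect was the higher of both, and a negative value that it was the lower.

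H3K9ac was profiled in hippocampus by chromatin immunoprecipitation and sequencing. The tau mice carried human MAPT with the P301S mutation and were compared with wild type mice, all of them males at 11 months. CK-p25 mice were females in which p25 was switched on at 3 months of age, and they were compared with CK littermates at 3.5 months (2 weeks later) and 4.5 months (6 weeks later). Further libraries, from tau (n = 2) and wild type (n = 3) females at 6 months, stand outside the contrast and served as separate libraries below. The labels name neither the tau line nor the promoter of its transgene, and do not say whether each library is 1 animal. If it is not, the p-values measure only the spread between libraries.

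Acetylation of lysine 9 neutralises its charge, and the mark lies on the nucleosomes around active promoters and on many enhancers, where it accompanies transcription. The P301S change lies in the microtubule-binding part of tau and promotes its aggregation in neurons. In CK-p25 mice, p25, a truncated form of p35, keeps the kinase Cdk5 active in forebrain neurons, which leads to DNA damage, inflammation and loss of neurons. Both are thus models of neurodegeneration, one driven by the tau protein and one by a kinase that acts on many proteins. In whole tissue, a change in the share of a cell type and a change of the mark within cells cannot be told apart.

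Each tau or wild type library held 4.10 to 6.18 M reads in domains, and each of the CK-p25 series 0.996 to 4.13 M, with means of 5.38 and 2.77 M. Antibody lot GR196840-1 was used for the tau series and lot GR207546-1 for the CK-p25 series. Lot, depth, sex, age and model therefore changed together between the series and cannot be told apart, while each effect was taken within 1 lot. The biological coefficient of variation was 5.92% in the tau and 6.05% in the CK-p25 series. The cross correlation that the labels give as a quality score of each ChIP averaged 0.228 ± 0.026 (SD, n = 3) for tau against 0.313 ± 0.025 (n = 3) in wild type libraries, with no overlap. It moved the other way in CK-p25 mice, at 0.167 ± 0.023 against 0.139 ± 0.037 in CK at 2 weeks and 0.132 ± 0.053 against 0.093 ± 0.039 at 6 weeks (n = 3 each), with overlap. Within the CK-p25 series cross correlation largely rose with read number, from 0.064 at 0.996 M reads to 0.187 at 4.13 M. Depth and cross correlation can therefore not be told apart there. The third replicates of CK and CK-p25 at 6 weeks were the shallowest libraries and stood apart on the first principal components.

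Few domains were called as changed in one model only once the difference itself was tested. Tau mice differed from wild type at 4320 domains (10.1% of those tested), 1537 of them higher (3.59%) and 2783 lower (6.5%), and CK-p25 from CK mice at 2103 (4.91%), 1127 higher (2.63%) and 976 lower (2.28%), at an edgeR adjusted p under 0.05. Of these, 2929 were called in tau and not in CK-p25 mice, and 712 in CK-p25 and not in tau mice. The effects themselves differed at 173 domains (0.404%), 11 of them positive (0.0257%) and 162 negative (0.379%), with 3620 domains at an unadjusted p under 0.05. The difference was called at only 83 of the 2929 domains (2.83%) and at 7 of the 712 (0.983%). For the others, a call in one model beside no call in the other does not show that the models differed. The median standard error of the difference was 0.32 on the log2 scale, against 0.23 for the tau effect and 0.21 for the CK-p25 effect.

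The 173 domains fell into groups by which effects were called. At 73 domains H3K9ac fell in tau mice with no call in CK-p25 mice, and at 10 it rose. At 6 domains it rose in CK-p25 mice with no call in tau mice, and at 1 it fell. Both models changed at the other 83: at 79 both fell and tau mice lost more, at 1 both rose and CK-p25 mice gained more, and at 3 tau mice lost while CK-p25 mice gained. Set beside these, 720 domains fell and 588 rose in both models with no call for a difference.

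**Figure D1:**
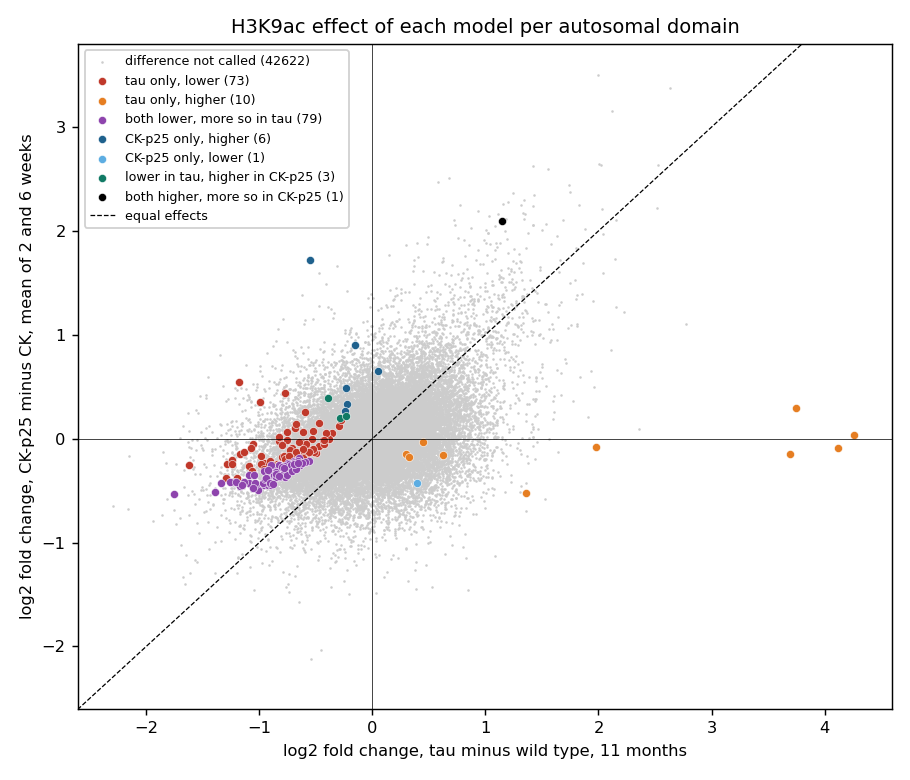
Each point is 1 of 42795 autosomal domains, with its log2 fold change in tau mice at 11 months on the x axis and the mean log2 fold change in CK-p25 mice on the y axis. The called differences lie mostly among the tau losses to the left, below or near an effect of 0 in CK-p25 mice, while 4 of the gains in tau mice lie far to the right at log2 changes of 3.70 to 4.26.

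The tau gains were dominated by 1 short stretch of chromosome 2. Between 131729571 and 131765732 (36.2 kb, mm9), 5 of 7 domains were higher in tau mice, by 3.94 to 19.1 times, and changed little in CK-p25 mice, whose fold changes there were 0.905 to 1.23. The stretch was singled out after its values were seen.

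Its widest domain, of 4633 bp from 131734485 to 131739117, held 376, 416 and 359 CPM (normalised reads per M reads in domains) in the 3 tau libraries and 96.1, 101.5 and 94.4 CPM in wild type. In the CK-p25 series its level was 116 to 135 CPM in CK and 114 to 132 CPM in CK-p25 libraries at 2 weeks, and 112 to 144 CPM against 102 to 132 CPM at 6 weeks. Tau libraries thus stood apart from all others, while CK-p25 and CK libraries overlapped at both times. The log2 change was 1.98 ± 0.07 (SE) in tau mice and -0.08 ± 0.06 in CK-p25 mice, a difference of 2.05 ± 0.09 (edgeR adjusted p = 2.25e-32).

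In the other 4 gained domains the controls held little signal. From 131729571 to 131731073, tau libraries at 11 months held 45.4, 52.3 and 49.8 CPM and the wild type libraries 2.50, 2.36 and 2.62 CPM, 19.1-fold in the fit. From 131762926 to 131765732 they held 93.4, 102 and 107 CPM against 7.17, 7.08 and 8.68 CPM, 13.0-fold. The gains at the 2053 bp and 372 bp domains between them were 17.4-fold and 13.5-fold. Differences from the CK-p25 effect in these 4 domains were 3.46 to 4.22 on the log2 scale, with edgeR adjusted p from 4.88e-26 to 0.017. The narrowest, from 131733848 to 131734219, had no reads in 1 CK library at 6 weeks, where 3 counts would be 3.10 CPM, a limit of counting error only.

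Domains beside the gained ones were not raised alike. The domain from 131757794 to 131759682, inside the stretch, held 14.8 to 15.5 CPM in tau and 13.4 to 18.5 CPM in wild type libraries, a log2 change of -0.06 ± 0.16 (SE). Among 14 domains within 100 kb on either side, 0 had a called difference and 2 a called tau effect. In a widely used line of P301S mice the transgene is driven by the promoter of the mouse prion protein gene, which lies on chromosome 2. Reads from mouse sequence within a transgene would be counted at the locus that the sequence came from. Whether this applies here was not tested, since no gene table of the build was used and the labels do not name the line.

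The 6-month libraries gave a check of this stretch in samples outside the contrast. The library labelled tau at 6 months, replicate 2, held 46.1, 55.4, 13.2, 414 and 96.9 CPM at the 5 domains in genome order, close to the tau libraries at 11 months. The library labelled tau at 6 months, replicate 1, held 0.800, 4.40, 1.00, 109 and 7.60 CPM, at or near the wild type level (at most 3.01, 4.29, 2.15, 122 and 12.4 CPM at 6 months), and so went against its label. Results at 6 months are therefore given with and without it. With all 5 libraries 1 of 41878 domains was called (0.00239%), and 37 without replicate 1, 4 of them in the stretch. The latter fit holds 1 tau library, which is assumed to vary like the 3 wild type libraries, so its calls describe that library and not tau mice at 6 months.

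**Figure D2:**
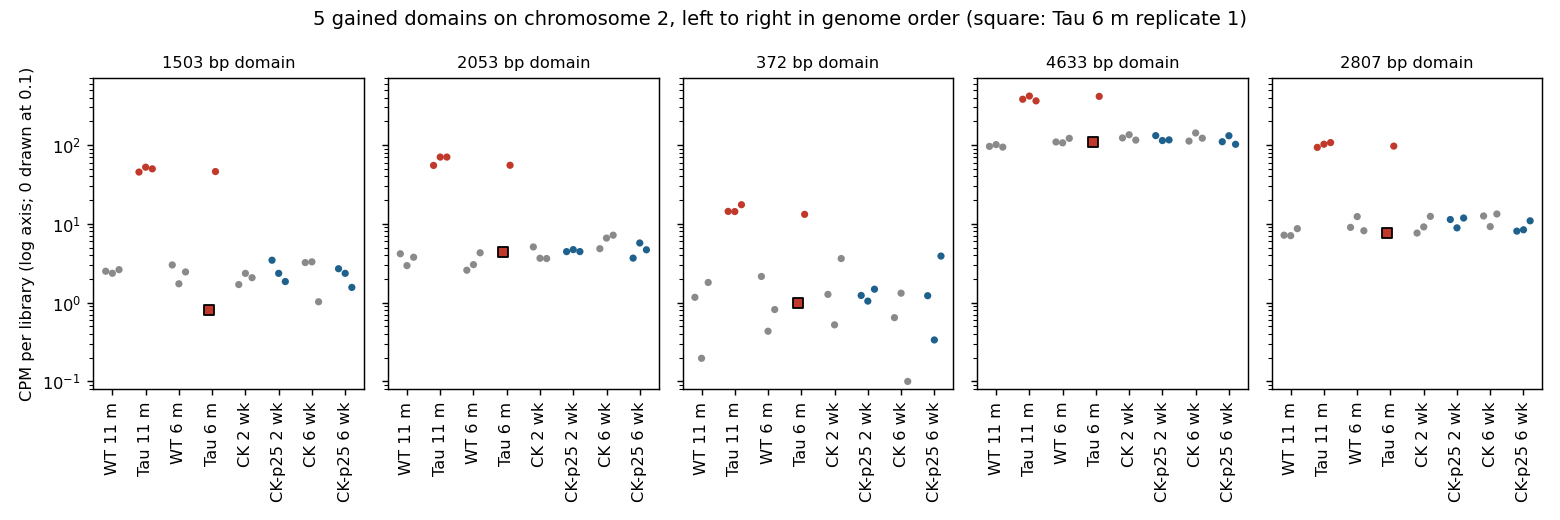
CPM (log axis, scaled over all 23 H3K9ac libraries) at the 5 gained domains of chromosome 2, with 1 point per library and tau in red, CK-p25 in blue and controls in grey. The 3 tau libraries at 11 months and 1 tau library at 6 months are high in every panel, and the square, tau at 6 months replicate 1, lies with the controls.

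Outside that stretch 5 domains rose in tau mice alone, with log2 changes of 0.30 to 1.36. On chromosome 18, the 5104 bp domain from 68386248 to 68391351 held 62.2, 58.1 and 68.2 CPM in tau and 46.4, 48.1 and 44.2 CPM in wild type libraries. Groups did not overlap in tau mice, whereas CK-p25 and CK libraries did at both times. The effects were 0.45 ± 0.09 (SE) in tau and -0.04 ± 0.07 in CK-p25 mice (difference 0.49 ± 0.12, edgeR adjusted p = 0.0258). At 6 months its log2 change was 0.15 ± 0.08 (SE) with all libraries, and 0.44 with replicate 2 as the only tau library, which has no replicate check.

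The remaining 4 differed in size and in depth. A narrow domain on chromosome 18, from 47152734 to 47153118, rose 2.57-fold in tau mice from 2.06 ± 0.73 to 5.42 ± 0.31 CPM (SD, n = 3), near the limit of what these libraries resolve, and its CK-p25 effect was -0.53 ± 0.28 on the log2 scale. At 6 weeks its CK-p25 libraries, at 3.04 to 3.89 CPM, all lay below CK, at 5.34 to 6.20 CPM. On chromosome 7, from 146764925 to 146768685, the gain was 1.23-fold. The CK-p25 effect there was -0.14 ± 0.07, and CK-p25 libraries all lay below CK at 2 weeks. Those on chromosome 11 were 0.62 ± 0.15 (SE) on the log2 scale, from 94867194 to 94868791, and 0.32 ± 0.09, from 3092786 to 3093788. The CK-p25 effects were -0.15 ± 0.13 at the former and -0.17 ± 0.08 at the latter. At the last of these a tau library, at 61.5 CPM, lay within the wild type range of 56.7 to 66.1 CPM. Its difference of 0.49 went to 0.09 with cross correlation as a covariate (edgeR adjusted p = 0.968). With each library left out in turn, the difference was called in 10 of 18 fits at the wider chromosome 18 domain and in 15 at the narrow one, in 10 at chromosome 7, and in 7 at each of those on chromosome 11. Uncalled negative CK-p25 effects thus made up part of the difference at all 4. Of the 10 tau gains, 3 had a CK-p25 effect whose 95% interval lay within 0.32 of 0 on the log2 scale.

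The tau losses were spread over the genome. The 73 domains that fell in tau mice alone lay on all 19 autosomes and in 69 bins of 1 Mb. Their level in tau mice was 0.609 of wild type at the median and ranged from 0.325 to 0.823, while the CK-p25 level was 0.916 of CK at the median. In CK-p25 mice 58 of the 73 (79.5%) had a negative effect, against 51.2% of all domains tested. An unadjusted p under 0.05 in edgeR's test was reached at 27 (37%), against 14.9% of all. The 73 were picked from these same values. Among all 1981 tau losses with no CK-p25 call, 89.9% had a negative CK-p25 effect and 38.1% such a p. The shared sign was thus not more frequent at the 73 than at tau losses with no CK-p25 call. A loss in tau mice alone mostly meant a smaller, uncalled value of the same sign in CK-p25 mice. At 36 of the 73 the 95% interval of the CK-p25 effect lay within 0.32 of 0 on the log2 scale, and at the rest a larger CK-p25 effect was not excluded by the interval.

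Broad domains made up most of them. Their median width was 2723 bp against 786 bp for all domains tested, and 57 of 73 (78.1%) were in the widest 25% of autosomal domains, which made up 25.3% of all tested. Their median level was 43.8 CPM in the tau series against 7.18 CPM over all domains. Of the 720 domains that fell in both models with no called difference, 88.2% were in that widest 25%, with a median width of 3123.5 bp. Breadth was thus not particular to the losses in tau mice alone. Width and read number move together and set how small a difference can be called. Their part in this count was not tested.

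The most firmly called loss was on chromosome 7, from 127343406 to 127345771 (2366 bp). Its level was 15.0, 20.6 and 16.5 CPM in tau and 40.0, 41.8 and 40.0 CPM in wild type libraries. In the CK-p25 series it was 34.3 to 38.5 CPM against 31.8 to 43.7 CPM in CK at 2 weeks, and 23.4 to 32.3 CPM against 34.7 to 44.4 CPM at 6 weeks. Tau libraries all lay far below wild type, at 0.423 of its level in the fit, while CK-p25 libraries overlapped CK at 2 weeks and lay below them at 6 weeks. The log2 effects were -1.24 ± 0.12 (SE) in tau, -0.0037 ± 0.13 at 2 weeks and -0.41 ± 0.15 at 6 weeks, where the CK-p25 call was missed (edgeR adjusted p = 0.191). Tau minus the CK-p25 mean was -1.04 ± 0.16 (edgeR adjusted p = 3.4e-05).

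A 2659 bp domain on chromosome 6, from 126112379 to 126115037, showed the reverse order of the CK-p25 times. Tau libraries held 15.7, 22.3 and 15.99 CPM and wild type 48.0, 42.4 and 39.1 CPM. CK-p25 libraries lay below CK at 2 weeks, at 19.8 to 33.6 against 34.4 to 39.5 CPM, and overlapped them at 6 weeks, at 24.1 to 35.8 against 26.5 to 36.03 CPM. Its difference was -1.04 ± 0.18 (SE; edgeR adjusted p = 0.000518).

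On chromosome 3, from 54716817 to 54720529, the level fell from 69.4, 65.0 and 59.7 CPM in wild type to 31.2, 37.8 and 30.1 CPM in tau libraries. The CK-p25 effect was -0.24 ± 0.09 (SE) and missed the threshold (edgeR adjusted p = 0.0828), so a smaller loss in CK-p25 mice is within its 95% interval of -0.41 to -0.08. At the other 3 named losses the CK-p25 effect was closer to 0. They lay on chromosome 12 from 59312534 to 59316001 (tau -0.80 ± 0.10, CK-p25 -0.06 ± 0.09), on chromosome 9 from 67606673 to 67608092 (-1.05 ± 0.14 and -0.05 ± 0.13) and on chromosome 4 from 137805315 to 137808740 (-0.71 ± 0.09 and -0.09 ± 0.08). In all 3 the tau and wild type libraries did not overlap, and the CK-p25 and CK libraries overlapped at both times. Tau libraries lay wholly below wild type at all 73 losses in tau mice alone, and at 13.8% of all domains tested. CK-p25 and CK libraries overlapped at both times at 57.5% of the 73 and 72.2% of all. The 73 were picked from these same values, so the lack of overlap is no further support. None of the 6 named losses had another called difference within 500 kb, among 3 to 59 neighbours. Of these 124 neighbours, 12 had a called tau loss of their own and 2 a called tau gain. Over all domains tested, 6.5% had a called tau loss and 3.59% a called tau gain. The nearest loss, 3.4 kb from the chromosome 7 domain, was -1.03 ± 0.32 (SE), and 71.2 kb from the chromosome 9 domain another was -1.14 ± 0.21.

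**Figure D3:**
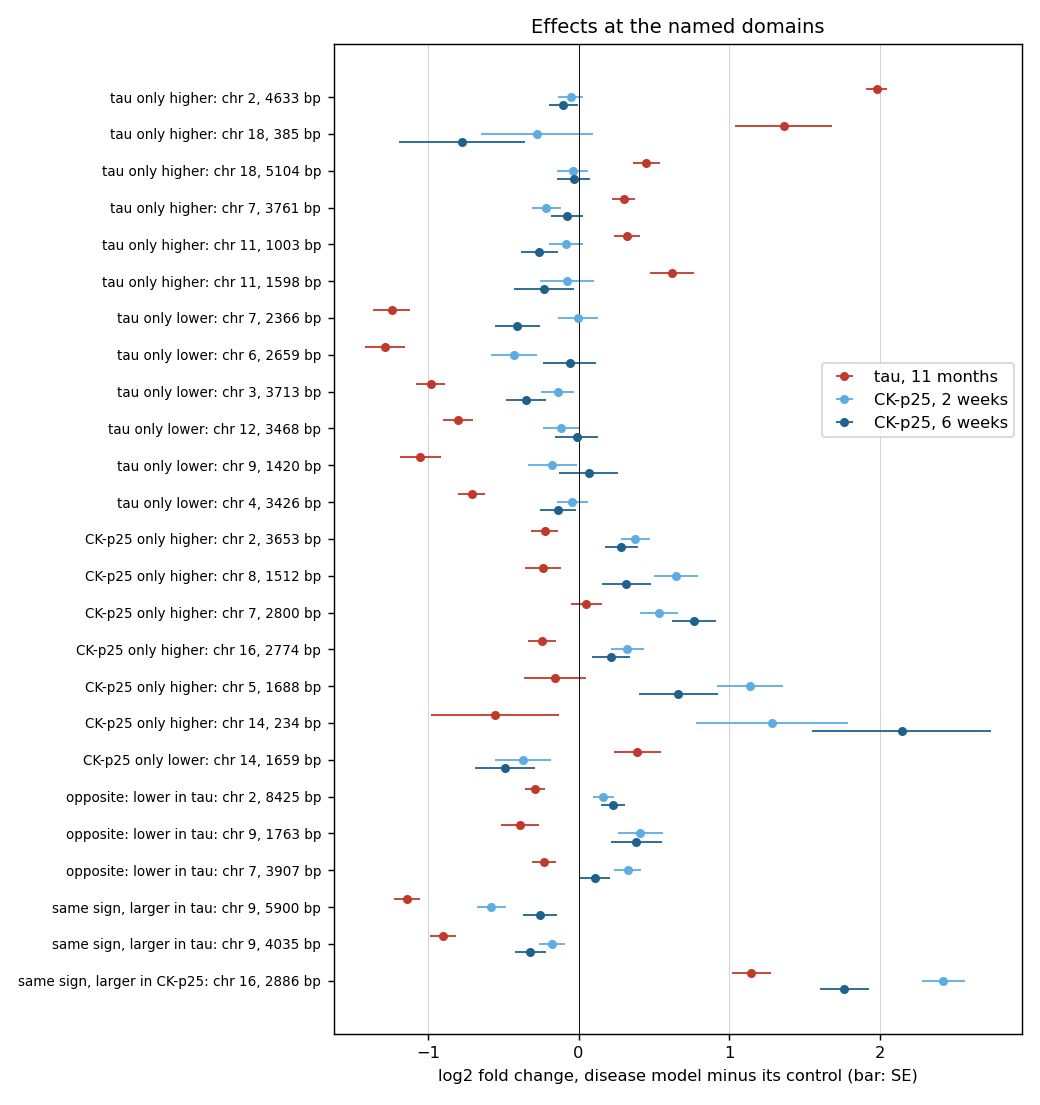
Log2 fold change with its standard error for tau at 11 months (red), CK-p25 at 2 weeks (light blue) and CK-p25 at 6 weeks (dark blue) at the 25 named domains, labelled by group, chromosome and width. The 4633 bp domain of chromosome 2 lies at 1.98 in tau mice and near 0 in CK-p25 mice, and the tau losses lie at -0.71 to -1.28.

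At 6 months the direction of the tau losses changed with replicate 1 of tau, the library that went against its label. With all 5 libraries the tau effect was negative at 29 of the 73 domains (39.7%), against 20835 of the 41476 domains with a value at 6 months. Without tau replicate 1 it was negative at 46 (63.0%), against 21122 of the 41476. The median log2 effect over the 73 moved from 0.02 to -0.05. With all libraries 9 of the 73 had an unadjusted p under 0.05 in edgeR's test, against 2057 of the 41476 domains with a value at 6 months. Those counts take both directions together, and in that fit 44 of the 73 effects were positive, so they do not show losses at 6 months. With 1 tau library left, a test at single domains says little and is not given. The 6-month mice were females, so age and sex cannot be told apart here.

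Gains in CK-p25 mice alone were few. The 6 domains lay on 6 chromosomes, rose 1.21- to 3.29-fold in CK-p25 mice, and had a negative tau effect at 5. At chromosome 7 from 149556615 to 149559414 (2800 bp), CK libraries held 26.5 to 45.4 CPM and CK-p25 libraries 51.9 to 60.8 CPM at 2 weeks, and 30.0 to 36.7 against 52.4 to 74.0 CPM at 6 weeks. Tau libraries held 49.3, 44.4 and 55.4 CPM and wild type 51.9, 42.0 and 50.2 CPM. CK-p25 libraries thus lay above CK at both times, and tau and wild type libraries overlapped. The effects were 0.65 ± 0.10 (SE) in CK-p25 mice and 0.05 ± 0.10 in tau mice, whose 95% interval of -0.15 to 0.25 lay within 0.32 of 0, the only such case among the 6. The difference was -0.60 ± 0.14 (edgeR adjusted p = 0.0231).

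The most firmly called of the 6, on chromosome 2 from 4479677 to 4483329, had effects of 0.33 ± 0.07 in CK-p25 and -0.23 ± 0.09 (SE) in tau mice. Tau libraries there, at 53.7 to 61.4 CPM, all lay below wild type, at 63.0 to 68.9 CPM, although the tau effect was not called (edgeR adjusted p = 0.0887). At 2 weeks CK-p25 and CK libraries overlapped, and at 6 weeks they did not. On chromosome 8, from 95378887 to 95380398, the gain was larger at 2 weeks (0.65 ± 0.15) than at 6 weeks (0.32 ± 0.17), with no call for a change between the times (edgeR adjusted p = 0.999).

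Of the other 3, those on chromosome 16 (20620220 to 20622993) and chromosome 5 (114247045 to 114248732) rose 1.21-fold and 1.87-fold. The last, a 234 bp domain on chromosome 14 from 122224842 to 122225075, rose 3.29-fold on a median of 8 reads per library. The single loss in CK-p25 mice alone was on chromosome 14, from 104082202 to 104083860. Its CK-p25 effect was -0.43 ± 0.14 (edgeR adjusted p = 0.0491) and its tau effect 0.39 ± 0.16 (SE; edgeR adjusted p = 0.1), so both calls were close to the threshold. With each library left out in turn, the differences at the 6 gains were called in 17, 14, 13, 9, 4 and 4 of 18 fits (chromosomes 2, 8, 7, 16, 5 and 14), and at the loss in 6.

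Opposite directions were called at 3 domains, each changed in both models. The widest, of 8425 bp on chromosome 2 from 129417304 to 129425728, held 163 to 197 CPM in tau and 200 to 230 CPM in wild type libraries. In CK-p25 mice it held 231 to 249 CPM against 206 to 220 CPM in CK at 2 weeks, and 221 to 244 against 167 to 205 CPM at 6 weeks. Disease and control libraries overlapped in none of the 3 comparisons, although both changes were small, at 0.819-fold in tau and 1.15-fold in CK-p25 mice. The difference of -0.48 ± 0.08 (SE; edgeR adjusted p = 0.000571) was called against each CK-p25 time alone.

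Chromosome 9 from 45177874 to 45179636 fell to 0.763 of wild type in tau mice and rose 1.32-fold in CK-p25 mice (difference -0.79 ± 0.17, SE; edgeR adjusted p = 0.00978). A CK library at 2 weeks, at 30.7 CPM, lay just above the lowest CK-p25 library, at 30.6 CPM, and the other comparisons did not overlap. At chromosome 7 from 121557843 to 121561749 the changes were 0.852-fold and 1.16-fold (difference -0.45 ± 0.10; edgeR adjusted p = 0.0199). The groups did not overlap in any of the 3 comparisons. Its CK-p25 effect was 0.33 ± 0.09 at 2 weeks and 0.11 ± 0.10 at 6 weeks. On chromosomes 9 and 7 the difference was called against CK-p25 at 2 weeks alone. Against 6 weeks alone it was not (edgeR adjusted p = 0.274 and 0.647). With cross correlation as a covariate the difference at these 3 domains kept its sign but was not called (edgeR adjusted p = 0.391, 0.691 and 0.66, in the order given). The chromosome 9 call was also lost without tau replicate 3 or wild type replicate 1 (edgeR adjusted p = 0.168 and 0.051). The chromosome 7 call was lost without any of 5 libraries: tau replicate 3, wild type replicates 1 and 2, CK at 6 weeks replicate 1 and CK-p25 at 6 weeks replicate 2 (edgeR adjusted p from 0.0512 to 0.171). It was also lost with the DESeq2 Wald test (adjusted p = 0.0754).

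**Figure D4:**
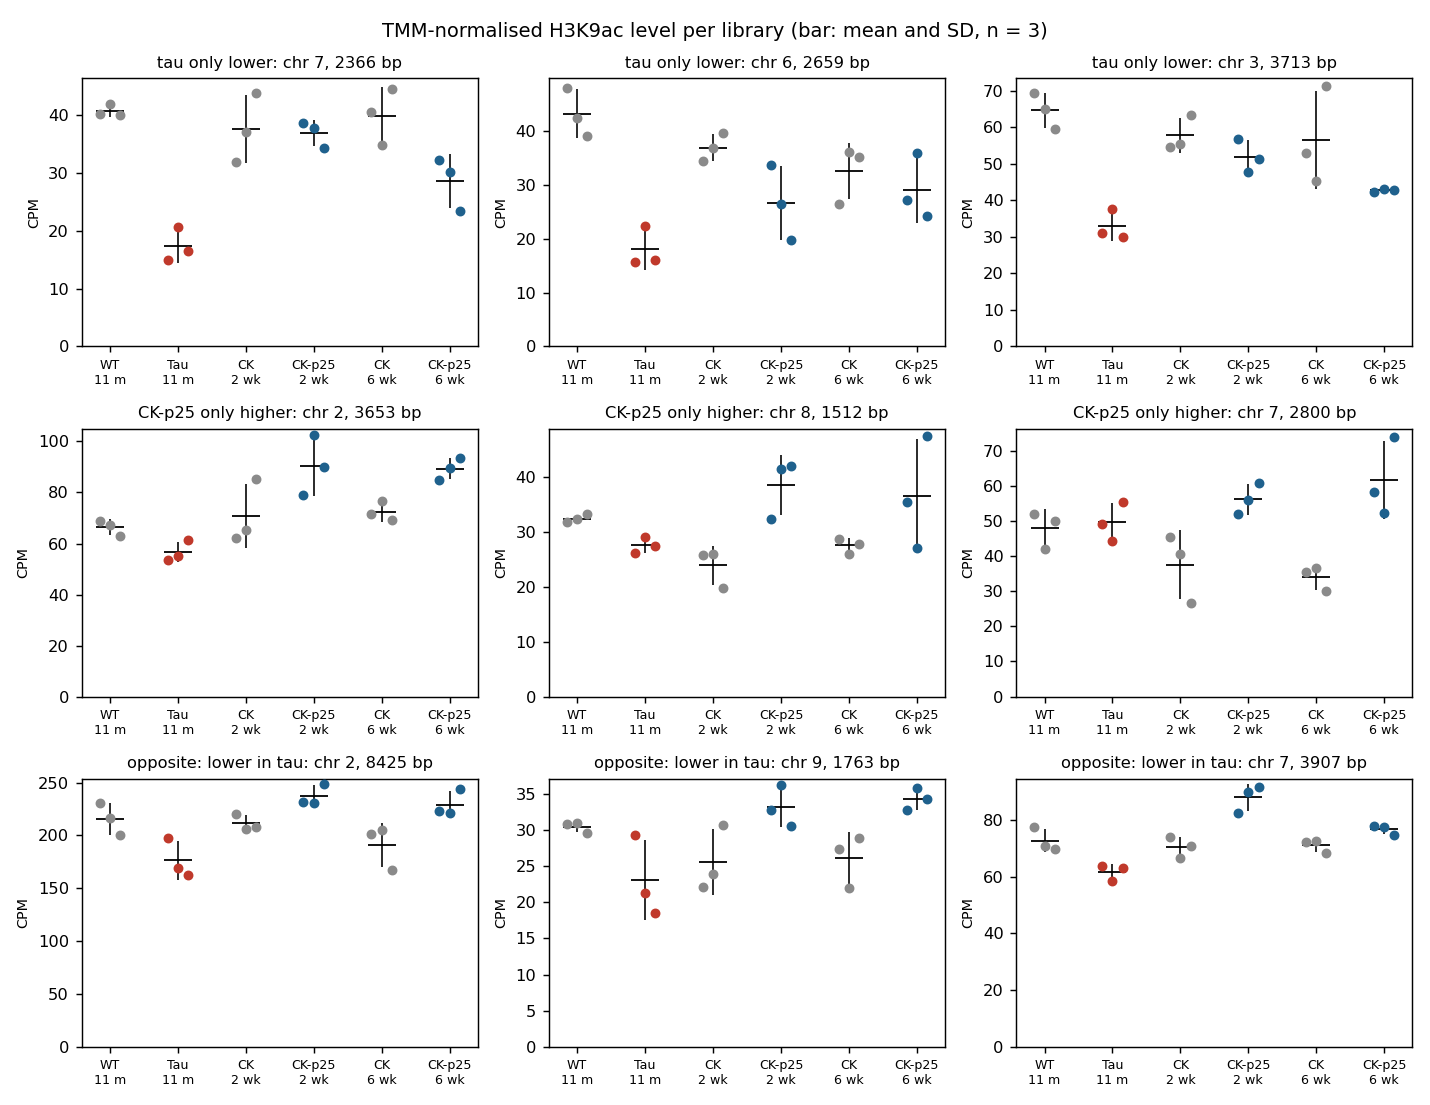
TMM-normalised CPM in each of the 18 libraries at 3 domains lower in tau mice alone (top), 3 higher in CK-p25 mice alone (middle) and the 3 with opposite effects (bottom), with mean and SD of 3 libraries. In the top row the tau libraries (red) lie below all wild type libraries, and in the middle row the CK-p25 libraries (blue) lie above CK libraries on average.

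Most of the domains that changed in both models and still differed were losses shared by both. At all 79 the CK-p25 effect was 38.9% of the tau effect at the median. Broad domains were again frequent, with 78 of 79 in the same widest 25% and a median width of 4322 bp. The 5900 bp domain on chromosome 9 from 106554205 to 106560104 fell by 1.14 ± 0.09 in tau and by 0.42 ± 0.07 (SE) in CK-p25 mice on the log2 scale. Its neighbour in rank, from 27597999 to 27602033 on chromosome 9, fell by 0.90 ± 0.08 and by 0.25 ± 0.07.

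One gain was larger in CK-p25 mice. The 2886 bp domain on chromosome 16 from 23609351 to 23612236 held 38.8, 38.8 and 56.5 CPM in tau and 20.4, 19.7 and 20.7 CPM in wild type libraries. CK-p25 libraries held 83.5, 99.4 and 122 CPM at 2 weeks and 73.8, 84.5 and 82.5 CPM at 6 weeks, with CK at 17.4 to 25.4 CPM over both times. Controls of the 2 series thus lay close together and every disease library lay above them. The gain was 2.22-fold in tau and 4.27-fold in CK-p25 mice, a difference of -0.94 ± 0.17 (SE; edgeR adjusted p = 0.00313). Against CK-p25 at 2 weeks alone the difference was -1.27 (edgeR adjusted p = 0.000289). Against 6 weeks alone it was -0.62 and not called (edgeR adjusted p = 0.562).

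Just inside the threshold lay domains on chromosome 5 (49914716 to 49916674; adjusted p = 0.0493) and chromosome 2 (164792732 to 164797401; 0.0495). Just outside lay those on chromosome 10 (127100860 to 127106429; 0.0517) and chromosome 5 (143167974 to 143169816; 0.053), all from edgeR. The last had a larger difference, -0.89, than both inside, -0.60 and -0.44.

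Bins of 1 Mb with a called difference were few. Of 2160 bins of 1 Mb, 38 (1.76%) had different effects, 2 positive (0.0926%) and 36 negative (1.67%), while 33.8% of bins were called in tau and 23.7% in CK-p25 mice. By effect, 14 bins fell and 2 rose in tau mice alone, 17 fell in both and more so in tau mice, 3 rose in CK-p25 mice alone and 2 moved in opposite directions. For the difference, 324 bins had an unadjusted p under 0.05 in edgeR's test, and its median standard error was 0.06. A bin with no call is therefore not shown to have equal effects. The bin at 131 to 132 Mb of chromosome 2, which holds the gained stretch, had a difference of 0.50 ± 0.03 (SE; edgeR adjusted p = 2.43e-13). The negative bin with the smallest p, at 59 to 60 Mb of chromosome 12, held only 4 tested domains and had a difference of -0.65 ± 0.12 (edgeR adjusted p = 0.00659). At 156 to 157 Mb of chromosome 1, with 25 tested domains, the difference was -0.28 ± 0.05 (edgeR adjusted p = 0.00759). Called domains were mostly alone: 144 of the 156 bins with a called domain held 1.

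Domains of at least 2672 bp, the widest 10%, took a lower part of the reads in disease than in control libraries of both models. Their share was 38.2 ± 0.4% in tau and 39.8 ± 0.4% in wild type libraries (SD, n = 3), 40.5 ± 0.4% in CK-p25 and 41.3 ± 0.2% in CK at 2 weeks, and 40.0 ± 0.3% and 41.1 ± 0.2% at 6 weeks. The tau effect was -1.60 percentage points and the CK-p25 mean -0.94, a difference of -0.656 points (exact two-sided permutation test over 8000 arrangements, p = 0.455). Exchanging labels takes no effect in either model as the reference, not equal effects. With both effects negative, this test cannot decide whether they differ. For reads in the sparsest 25%, those with few other domains within 1 Mb, the difference was -0.0954 points (exact permutation p = 0.771).

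The counts moved with depth and with single libraries. With tau and wild type libraries thinned to the mean depth of the CK-p25 series, 84 domains differed, 37 of them changed in tau and 4 in CK-p25 mice alone. Against CK-p25 at 2 weeks alone 185 domains differed (0.432%), and at 6 weeks alone 12 (0.028%). The CK-p25 effects themselves differed between the times at 1 domain (0.00234%). Leaving out 1 library gave 28 domains (without tau replicate 3) to 398 (without tau replicate 2). Other libraries whose absence moved the count by over 1.5 times gave 92 (tau replicate 1), 37 and 51 (wild type replicates 1 and 2), 85 (CK at 6 weeks, replicate 1), 76 (CK-p25 at 2 weeks, replicate 1) and 70 (CK-p25 at 6 weeks, replicate 2). Of the 25 named domains, 10 were called without each library in turn, among them the chromosome 2 gain and 5 of the 6 named tau losses.

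Cross correlation also moved with the groups. With it as a covariate 10 domains differed, 4 positive, all in the chromosome 2 stretch, and 6 negative. Of these 10, 7 were among the 173 and 3 were not, and 2 of the 25 named domains kept their call. At chromosome 9 from 3025257 to 3027997 the difference turned from 0.76 to -0.60, and at chromosome 13 from 21487987 to 21488372 from 0.15 to -7.94. Without the covariate neither domain had a called effect in either model. At the chromosome 13 domain, of 386 bp, those effects were 0.25 in tau and 0.09 in CK-p25 mice. The value of -7.94 thus arose with the covariate and is not taken as a difference between the models. Over the 173 domains the sign stayed at all 173, the median size of the difference went from 0.55 to 0.53 and the median standard error from 0.12 to 0.18. The 173 were picked for their difference in these same libraries, so the kept sign and size are no further support. The part of cross correlation in the differences cannot be told apart from that of tau, since tau and wild type libraries did not overlap in it. In the CK-p25 series it cannot be told apart from that of depth.

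**Figure D5:**
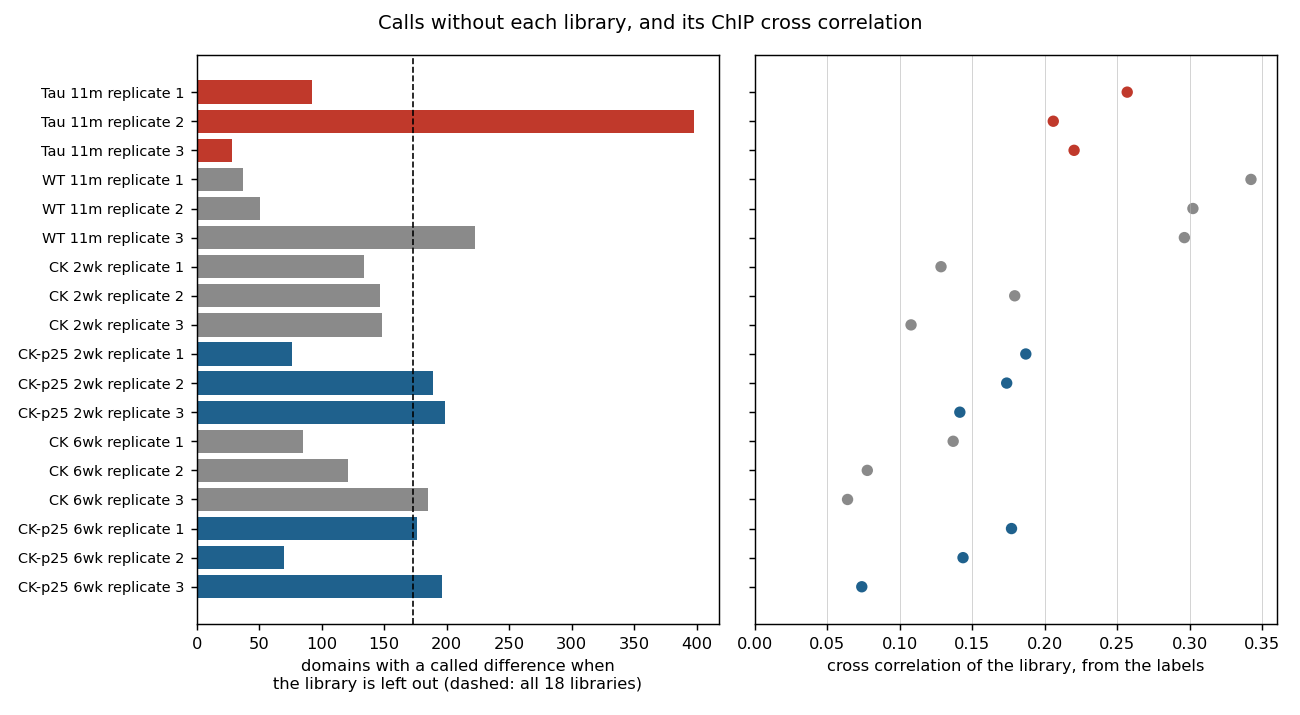
Left, the number of domains with a called difference when each of the 18 libraries is left out, with the count of 173 from all libraries as a dashed line; right, the cross correlation of that library. The count ranges from 28 to 398, both from leaving out a tau library, and tau libraries (red) lie below wild type libraries in cross correlation.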

How the data were processed

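The authors deposited raw read counts, without normalization, per H3K9ac domain and library, with domain positions on mm9. Per the submitters' processing notes, BWA, Picard 1.1175, MACS2 and mm9 were used, with no roles given. Per the series' design text, input DNA served in peak calling and reads were counted in a common set of peaks. Pooled or separate calling is not stated there. The gene table at hand is for another build, so domains carry coordinates (1-based) and no gene names, and the gene lists were not used.

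Counts of the 18 libraries were fitted with edgeR 4.0.16 (R 4.3.3): quasi-likelihood F test, TMM factors, filterByExpr by group, robust dispersions, a mean per group and no covariate. Two-sided p-values were Benjamini-Hochberg adjusted over 42795 domains (threshold 0.05), and a standard error is the size of the log2 fold change divided by the root of F. CPM are TMM-normalised over the 18 libraries, and over all 23 for 6-month libraries and for the narrower domains of the gained stretch. "Alone" means called in 1 model with a called difference. No replicate pair agreed within sampling noise (chi-square per degree of freedom 1.28 to 1.89). Up to 6 domains were named per group by smallest p of the difference, at most 1 per 1 Mb, with up to 4 of opposite and 2 of each kind of same sign, and up to 4 bins per direction. The members, groups and lists were chosen with earlier results of these data known. Whether libraries overlap at a named domain describes it and is no further support, since the domain was picked from these values. The scripts were tested on simulated data. Alternatives were other scalings, no count filter, DESeq2 1.42.0, limma 3.58.1 (voom), a threshold of 0.01, a replicate block, cross correlation, series fitted apart, thinning, each CK-p25 time and each library left out.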

Additional observations from a re-analysis of the deposited data

Results flagged for a closer look

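The effects of the models differed, with opposite called directions, at 3 domains: chromosome 2 from 129417304 to 129425728 (-0.48 on the log2 scale), chromosome 9 from 45177874 to 45179636 (-0.79) and chromosome 7 from 121557843 to 121561749 (-0.45). Their adjusted p-values from edgeR were 0.000571, 0.00978 and 0.0199. None was called with cross correlation as a covariate, and of 18 fits with 1 library left out they were called in 18, 16 and 13.

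Within CK-p25 mice 1 domain, on chromosome 10 from 99062373 to 99063196, had effects that differed between the times by -1.87 (edgeR adjusted p = 0.00994). H3K9ac there was higher at 2 weeks (1.14 ± 0.23, SE) and had a value of -0.73 ± 0.24 at 6 weeks, so the mean over both times describes neither.

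In libraries outside the contrast, the library labelled tau at 6 months, replicate 2, held 46.1, 55.4, 13.2, 414.3 and 96.9 CPM at the 5 gained domains of chromosome 2. The 3 wild type libraries at 6 months held at most 3.01, 4.29, 2.15, 122 and 12.4 CPM there.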

How the results depend on the processing

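Each count is given here as domains with different effects, then those changed in tau mice alone, in CK-p25 mice alone, and in both, against 173, 83, 7 and 83, followed by 1 Mb bins against 38. The DESeq2 Wald test gave 54, 30, 2, 22 and 20. A threshold of 0.01 gave 50, 30, 1, 18 and 5. Cross correlation as a covariate gave 10, 7, 0, 3 and 1. Tau and wild type libraries thinned to the mean CK-p25 depth gave 84, 37, 4, 43 and 10. CK-p25 at 6 weeks alone gave 12, 12, 0, 0 and 4. CK-p25 at 2 weeks alone gave 158 changed in tau mice alone and 16 in both. Each series fitted apart, with the 6-month libraries in the tau fit, gave 332, 154, 13 and 159 over 37396 domains. The difference was then tested by a t test on the effects and standard errors of both fits. The gain on chromosome 2 from 131734485 to 131739117 missed the threshold in it (t test, adjusted p = 0.0991). Its log2 difference stayed between 2.00 and 2.12 under all alternatives. That tau fit held tau at 6 months replicate 1, at 109 CPM there against 414 CPM in replicate 2. Whether this library led to the miss was not tested. Bins alone moved with DESeq2 size factors (25), library totals (15), without both shallow 6-week libraries (23) and at 2 Mb (14). Split by sign, calls were 11 positive and 162 negative with TMM and 4 and 6 with the covariate. The other scalings, no count filter and voom kept every domain count within 1.5 times. The cause of the changes was not tested, beyond fewer reads in the thinned libraries.

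Leaving out 1 library gave 28 to 398 domains, 10 to 178 in tau mice alone, 0 to 10 in CK-p25 mice alone, 13 to 206 in both, and 3 to 78 bins. The difference in the share of reads ranged from -0.883 to -0.448 points in the widest domains and from -0.215 to 0.0124 in the sparsest, where the sign turned without tau replicate 3 (0.0124) and against 6 weeks alone (0.212). Without tau replicate 1 at 6 months, a choice made after seeing the data, 46 of 73 tau losses were negative at that age, against 29.

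Whether the replicate numbers pair the libraries is not settled here. Deviations of same-numbered libraries correlated at -0.013 to 0.043, and those of other pairs at -0.042 to 0.043. Between tau and wild type libraries the same-numbered values were 0.015 to 0.041 and the others -0.029 to 0.003. At 2 weeks both kinds reached 0.043. A replicate block within each comparison gave 327, 133, 13, 178 and 100, which include all 173 domains. Of 797 single values at named domains under these alternatives 0 turned sign, 595 kept their call and 202 lost it. The named domains were picked for their difference in the same libraries, so the kept sign is no further support.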
